A study of Mus musculus with 9 samples.

Results

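Peptide transport, trimming and loading onto MHC class I was followed through 8 named genes, Tap1, Tap2, Tapbp, Tapbpl, Erap1, Calr, Canx and Pdia3. The choice was by name for their roles in that pathway, with earlier results of these data known. They are 8 of the 55487 genes in a table of RNA sequencing read counts from B16F10 cells, a mouse melanoma line. All 8 had enough counts to be tested among 15237 genes. Interferon gamma (IFNγ, written IFNg in the labels) is a cytokine of T cells and natural killer cells, and FK866 blocks NAMPT, an enzyme by which cells recycle nicotinamide into NAD.

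There were 3 groups of 3 libraries: IFNγ at 50 ng/mL with FK866 at 50 nM, IFNγ at 50 ng/mL, and media alone. All groups share the cell line and the 6 h of treatment, and in every group the titles call the libraries Control 3, 4 and 5, written here as numbers 3, 4 and 5. The labels do not state what these numbers mean or whether libraries of a group were separate cultures, and the p-values below speak of the variation among these libraries alone, which may be technical. The treatment text names mouse or human IFNγ and gives the dose for the mouse protein. No group had FK866 without IFNγ. Total counts ran from 15317003 to 18466972 per library. All 8 melanocyte lineage markers on a list that included Mitf, Tyr and Pmel had counts, with summed levels of 15293 to 17535 CPM (counts scaled to an equal effective library size) with IFNγ plus FK866, 15877 to 17652 CPM with IFNγ and 17243 to 19580 CPM in media. These ranges overlapped. With scaling to library totals the sums were 15623 to 17322, 16100 to 17225 and 17723 to 19051 CPM in the same groups. There media lay above both groups with IFNγ, which overlapped each other. Mitf, the master regulator of the lineage, had 266, 374 and 366 CPM with IFNγ in numbers 3, 4 and 5, against 753, 884 and 783 CPM in media (edgeR adjusted p = 0.000773). The part of these markers in the results below was not tested. Of 8 leukocyte markers, 6 including Ptprc and Itgam had no counts in any group. The summed list, nearly all of it Cd68, reached 9.20 CPM with IFNγ plus FK866, 9.75 CPM with IFNγ and 11.3 CPM in media. Of 7 fibroblast, endothelial and keratinocyte markers, Cdh5, Krt5 and Krt14 had no counts in any group. Col1a1, Col1a2, Pdgfra and Pecam1 had counts in every group. The summed list spanned 3.97 to 10.1 CPM with IFNγ plus FK866, 3.49 to 8.77 CPM with IFNγ and 7.46 to 14.6 CPM in media. Col1a2 had 1.32, 1.77 and 1.95 CPM in IFNγ libraries 3, 4 and 5, against 5.65, 6.57 and 4.12 CPM in media. It was called lower with IFNγ (edgeR log2 fold change -1.69), as were 0.499% of all genes tested. Pdgfra was highest in number 4 in each group, up to 7.29 CPM in media.

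MHC class I molecules show peptides from inside the cell to CD8 T cells. Proteasomes cut proteins in the cytosol, the TAP transporter (a heterodimer of the Tap1 and Tap2 products) pumps the peptides into the endoplasmic reticulum (ER), and the aminopeptidase encoded by Erap1 trims them there. New class I heavy chains are first held by calnexin (Canx) and then by calreticulin (Calr) and the disulphide isomerase ERp57 (Pdia3). Tapasin (Tapbp) bridges the class I molecule to TAP and edits its peptide, and the tapasin-related protein TAPBPR (Tapbpl) edits peptides outside that complex. B16F10 cells are widely used as a melanoma model with little class I on the surface, which IFNγ raises.

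The transporter and tapasin genes lie in the MHC region. In GENCODE M21 on GRCm38, Tap1 (ENSMUSG00000037321) is at chr17:34187553-34197225 and Tap2 (ENSMUSG00000024339) at chr17:34203527-34216321, both on the plus strand with 6302 bases between them. Tapbp (ENSMUSG00000024308) is at chr17:33915899-33929292 on the plus strand. The other genes lie on other chromosomes: Tapbpl (ENSMUSG00000038213) at chr6:125223933-125231860 on the minus strand, Erap1 (ENSMUSG00000021583) at chr13:74639568-74693201 on the plus strand and Calr (ENSMUSG00000003814) at chr8:84841850-84846934 on the minus strand. Canx (ENSMUSG00000020368) is at chr11:50293961-50325673 on the minus strand and Pdia3 (ENSMUSG00000027248) at chr2:121413775-121438687 on the plus strand. All 8 are annotated as protein-coding.

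Promoter windows from RefSeq on GRCm38.p6, from 250 bases before the RefSeq start to 50 after it, were matched for 6 of the 8 genes. Tap2 and Tapbpl are the remaining genes. The windows shown are those of genes that rose with IFNγ (Erap1 and Tap1) and of chaperones that were not called (Calr and Canx), to set side by side the letters of both kinds. Capitals mark the interferon-stimulated response element (ISRE, read as GAAA, any 2 bases, GAAA) in Erap1, which is on the strand opposite to the gene. They mark the ER stress response element (ERSE, read as CCAAT, any 9 bases, CCACG) in Calr, on the opposite strand, and in Canx, on the gene's strand, and a CCAAT box with a GC box (GGGCGG) in Tap1. GC boxes in the Erap1, Calr and Canx windows, and further CCAAT letters in Calr and Canx, are left in lower case. All windows are written 5′ to 3′ on the strand of the gene, at chr13:74639603-74639902 (plus strand) for Erap1, chr17:34187306-34187605 (plus) for Tap1, chr8:84846882-84847181 (minus) for Calr and chr11:50325624-50325923 (minus) for Canx.
Erap1: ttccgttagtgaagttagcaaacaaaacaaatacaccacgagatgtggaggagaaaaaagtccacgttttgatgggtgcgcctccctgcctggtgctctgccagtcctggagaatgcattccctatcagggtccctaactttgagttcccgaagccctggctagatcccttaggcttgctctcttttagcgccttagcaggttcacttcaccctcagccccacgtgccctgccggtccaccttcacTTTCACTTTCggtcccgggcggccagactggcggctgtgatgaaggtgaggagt
Tap1: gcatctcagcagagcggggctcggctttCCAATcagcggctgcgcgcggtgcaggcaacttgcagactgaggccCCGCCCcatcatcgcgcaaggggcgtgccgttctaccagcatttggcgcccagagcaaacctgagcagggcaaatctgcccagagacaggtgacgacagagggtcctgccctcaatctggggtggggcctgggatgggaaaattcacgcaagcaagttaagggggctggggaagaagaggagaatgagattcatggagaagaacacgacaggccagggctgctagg
Calr: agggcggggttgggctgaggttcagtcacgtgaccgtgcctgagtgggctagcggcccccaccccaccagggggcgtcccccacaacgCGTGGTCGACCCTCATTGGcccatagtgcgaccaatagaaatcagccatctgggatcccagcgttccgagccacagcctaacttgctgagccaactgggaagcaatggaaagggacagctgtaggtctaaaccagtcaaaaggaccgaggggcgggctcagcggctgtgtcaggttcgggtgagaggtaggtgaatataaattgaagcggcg
Canx: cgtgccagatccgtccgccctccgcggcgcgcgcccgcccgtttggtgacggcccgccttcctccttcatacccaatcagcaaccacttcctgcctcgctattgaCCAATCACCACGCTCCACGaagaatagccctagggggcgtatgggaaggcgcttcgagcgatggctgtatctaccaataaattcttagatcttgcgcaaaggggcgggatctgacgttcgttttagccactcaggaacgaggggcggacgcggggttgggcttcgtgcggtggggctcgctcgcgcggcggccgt

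These 7 motifs were searched on both strands of the 6 windows and of all 32851 windows in the RefSeq table: ISRE, ERSE, the gamma-activated site (GAS, TTCNNNGAA), CCAAT, the GC box, an NF-kB site (GGGAC followed by TTTCC) and a cyclic AMP response element (CRE, TGACGTCA). The ISRE letters were in 3.44% of all windows and, among the 6 genes, in Erap1, where the match GAAAGTGAAA starts 4 bases before the RefSeq start, which lies inside the GENCODE gene given above. The ERSE letters were in 0.119% of all windows (39 windows) and, among the 6, in Calr and Canx. The ERSE contains CCAAT, which was in 37.4% of all windows and in those of Tap1, Tapbp, Calr, Canx and Pdia3. A GC box was in 35.7% of all windows and in all 6. GAS letters (8.3%), the NF-kB site (0.155%) and the CRE (1.79%) had no match in the 6 windows. A match describes letters in a window and says nothing of binding.

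With IFNγ, the transporter, both editors and the trimming enzyme rose, while the 3 chaperone genes were not called. In edgeR's quasi-likelihood test over all 15237 genes with Benjamini-Hochberg adjustment, 5 of the 8 genes were called higher than in media at an adjusted p below 0.05, and 0 lower. Of all genes tested, 2.80% were called higher and 0.499% lower. The same 5 genes were called with the library number as a block, a fit that compares libraries within a number, where 8.12% of all genes were called higher and 6.14% lower. All 3 IFNγ libraries lay above all 3 media libraries for these 5 genes, as they did for 7.97% of all genes, while 5.85% had all 3 below and none of the 8 did. The median log2 fold change of the 8 genes was 2.45, beside -0.01 over all genes tested. In bulk RNA, fewer cells expressing a gene and less of its RNA per cell cannot be told apart.

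**Figure D1:**
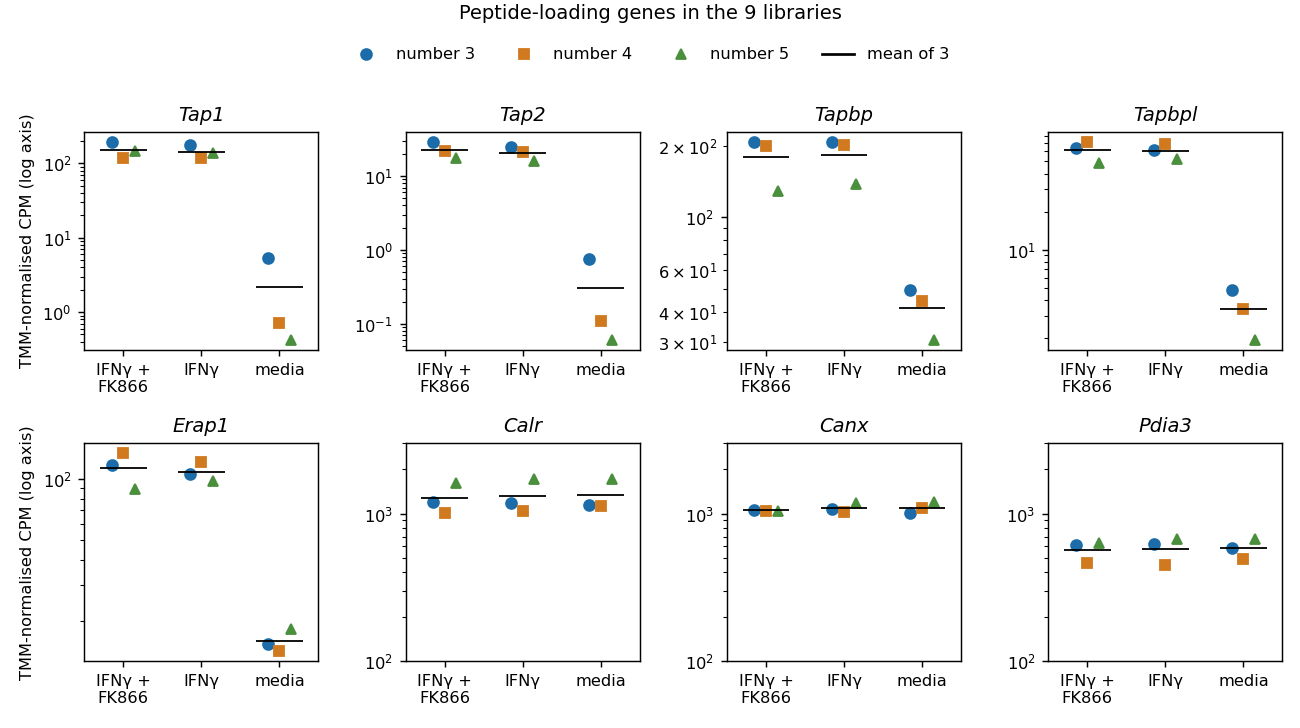
Level of each of the 8 genes in TMM-normalised CPM (log axis, with a different range for each gene except Calr, Canx and Pdia3, which share 1) in IFNγ plus FK866, IFNγ and media, 3 libraries each, with the number given by marker and the mean as a bar. Tap1, Tap2, Tapbp, Tapbpl and Erap1 are higher in all 6 libraries with IFNγ than in the 3 media libraries, and the groups overlap for Calr, Canx and Pdia3.

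Tap1 encodes one subunit of the peptide transporter. It had 176, 117 and 139 CPM in the IFNγ libraries numbered 3, 4 and 5, against 5.34, 0.712 and 0.418 CPM in media. The media levels rest on 85, 13 and 7 counts, with 95% Poisson intervals of 67.9 to 105, 6.92 to 22.2 and 2.81 to 14.4 counts. Every IFNγ library was far above every media library, and media library 3 was well above the other two media libraries. The log2 fold change was 6.09 with a standard error of 0.68 (edgeR adjusted p = 0.000645), a 68.2-fold difference with a 95% interval of 23.7 to 197. Within a number, the ratio of IFNγ to media was 33.0 in number 3 (95% counting interval 26.6 to 41.5), 165 in number 4 (96.0 to 310) and 333 in number 5 (161 to 829). Counting intervals here cover counting error only. The fitted fold depends on media library 3, without which it was 250, and on the method, at 120 with limma-voom.

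Tap2, the other subunit, moved with Tap1 and had a lower level per kilobase of exon in every library. Tap2 had 25.1, 21.3 and 16.1 CPM in IFNγ libraries 3, 4 and 5, against 0.753, 0.110 and 0.0597 CPM in media. The media values are 12, 2 and 1 counts, with 95% Poisson intervals of 6.2 to 21, 0.242 to 7.22 and 0.0253 to 5.57 counts. Again the groups did not overlap and media library 3 was the highest of its group. The log2 fold change was 6.09 with a standard error of 0.56 (edgeR adjusted p = 0.000155), a 68.2-fold difference with a 95% interval of 28.7 to 162, and it was 224-fold without media library 3. Within a number, the ratio to media was 33.3 in number 3 (95% counting interval 18.8 to 65.0), 194 in number 4 (53.3 to 1610) and 269 in number 5 (47.9 to 10700). The wide intervals in numbers 4 and 5 come from the few media counts. Ranked by log2 fold change among the 15237 genes, Tap1 was at place 67 and Tap2 at place 68.

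Tapbp and Tapbpl encode the peptide editors. Tapbp had 207, 202 and 138 CPM in IFNγ libraries 3, 4 and 5, against 49.4, 44.5 and 30.4 CPM in media. Its groups did not overlap, library 5 was the lowest in both groups, and the ratio within a number was 4.19, 4.55 and 4.56 in numbers 3, 4 and 5. The log2 fold change was 2.14 with a standard error of 0.25 (edgeR adjusted p = 0.000843), or 4.41-fold with a 95% interval of 2.99 to 6.49. Tapbpl had 61.8, 68.3 and 52.5 CPM with IFNγ, against 4.77, 3.40 and 1.91 CPM in media. Its lowest IFNγ library was more than 10 times its highest media library. Its log2 fold change was 4.18 with a standard error of 0.29 (edgeR adjusted p = 2.26e-05), or 18.1-fold with a 95% interval of 11.5 to 28.5. The ratio within a number was 12.9, 20.1 and 27.5 in numbers 3, 4 and 5. Tapbp was the higher of the pair per kilobase in every library. By log2 fold change Tapbpl was at place 116 and Tapbp at place 236.

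Erap1, the trimming aminopeptidase, had 106, 121 and 97.8 CPM in IFNγ libraries 3, 4 and 5, against 15.4, 14.1 and 18.2 CPM in media. The groups did not overlap, and number 5 was the lowest with IFNγ and the highest in media. The log2 fold change was 2.77 with a standard error of 0.17 (edgeR adjusted p = 1.08e-05), or 6.80-fold with a 95% interval of 5.19 to 8.90, at place 185 of 15237. The ratio within a number was 6.88, 8.55 and 5.37 in numbers 3, 4 and 5.

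Calr, Canx and Pdia3 encode ER chaperones that serve many glycoproteins besides class I. Calr had 1188, 1040 and 1731 CPM in IFNγ libraries 3, 4 and 5, against 1138, 1134 and 1730 CPM in media. Canx had 1080, 1025 and 1179 CPM with IFNγ, against 1008, 1084 and 1203 CPM in media, and Pdia3 had 619, 448 and 674 CPM with IFNγ, against 589, 495 and 673 CPM in media. The groups overlapped for all 3 genes, and Calr was highest in number 5 and Pdia3 lowest in number 4 in both groups. Their log2 fold changes were -0.02 for Calr, -0.00494 for Canx and -0.01 for Pdia3, each with an edgeR adjusted p of 1.00. With the number as a block, the 95% interval of the log2 fold change was -0.15 to 0.11 for Calr, -0.14 to 0.13 for Canx and -0.15 to 0.11 for Pdia3 (edgeR adjusted p = 0.898, 0.981 and 0.895).

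**Figure D2:**
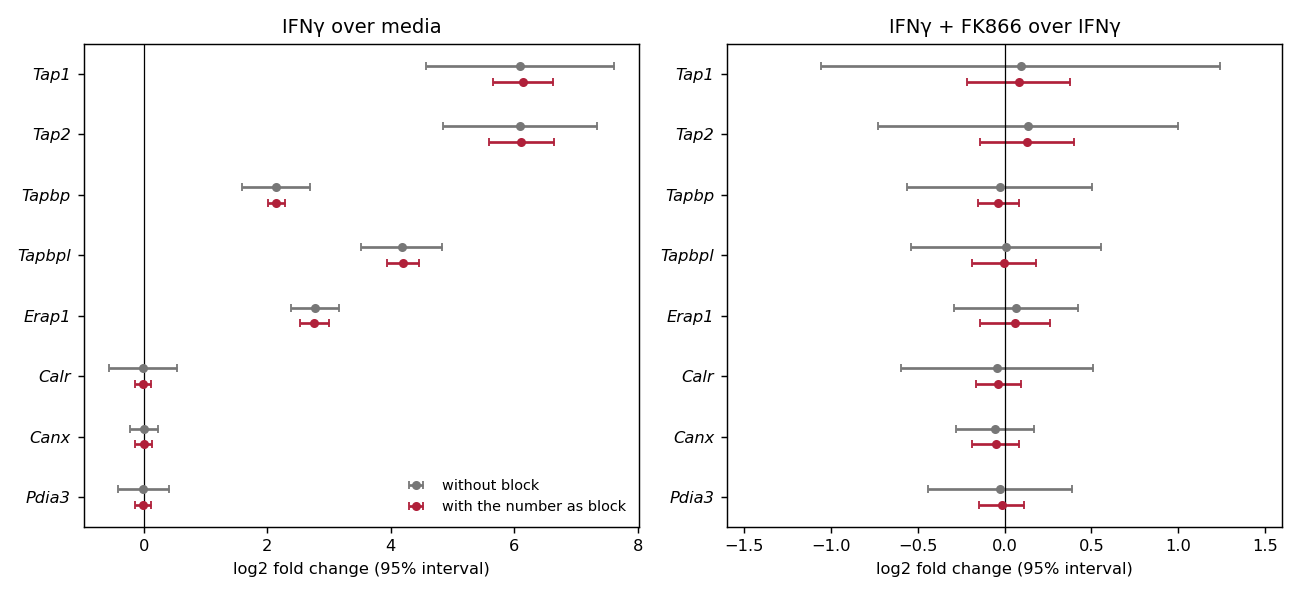
Log2 fold change of each gene with its 95% interval, for IFNγ over media (left) and for IFNγ plus FK866 over IFNγ (right, on a narrower axis), in edgeR fits without and with the number as a block. On the left, without the block, 5 genes lie between 2.14 and 6.09 and the 3 chaperones at about 0, and on the right every interval spans 0.

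Adding FK866 to IFNγ called none of the 8 genes. The comparison asks whether levels with IFNγ differ when a NAMPT inhibitor is added. Without a group of FK866 alone, an altered response to IFNγ and an effect of FK866 by itself cannot be told apart. Tap1 had 195, 118 and 149 CPM in the IFNγ plus FK866 libraries 3, 4 and 5, against 176, 117 and 139 CPM with IFNγ. Tap2 had 29.0, 21.7 and 17.8 CPM with IFNγ plus FK866, against 25.1, 21.3 and 16.1 CPM with IFNγ. Both transporter genes were slightly higher with FK866 in 3 of 3 numbers, by ratios of 1.10, 1.01 and 1.07 for Tap1 and 1.158, 1.02 and 1.11 for Tap2, while their groups overlapped. The share of all genes with the same direction in every number was not counted. Tapbp had 208, 200 and 129 CPM with IFNγ plus FK866, against 207, 202 and 138 CPM with IFNγ, and Tapbpl had 63.7, 71.4 and 48.5 CPM against 61.8, 68.3 and 52.5 CPM with IFNγ. Erap1 had 117, 134 and 89.1 CPM with IFNγ plus FK866, against 106, 121 and 97.8 CPM with IFNγ. For these 3 genes number 5 was lower with FK866, number 3 was higher, and the groups overlapped.

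The chaperones showed differences of the same small size. Calr had 1202, 1018 and 1620 CPM with IFNγ plus FK866, against 1188, 1040 and 1731 CPM with IFNγ. Canx had 1065, 1050 and 1046 CPM with IFNγ plus FK866, against 1080, 1025 and 1179 CPM with IFNγ, and Pdia3 had 617, 465 and 629 CPM against 619, 448 and 674 CPM with IFNγ. All 3 were lower with FK866 in number 5, and the groups overlapped.

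Log2 fold changes for IFNγ plus FK866 over IFNγ lay between -0.05 for Canx and 0.14 for Tap2, with an edgeR adjusted p of 1.00 for each gene. No gene of the 15237 (0%) was called by edgeR or by DESeq2, and 88 (0.578%) had an unadjusted p below 0.05, none of them among the 8. With the number as a block, 2 genes were called higher (0.0131%) and 1 lower (0.00656%), and 573 (3.76%) had an unadjusted p below 0.05, again none among the 8. Groups did not overlap in 1.94% of all genes (higher with FK866) and 1.39% (lower), and overlapped for all 8. Without the block, the 95% interval of the fold with FK866 was 0.482 to 2.36 for Tap1, 0.604 to 2.001 for Tap2, 0.678 to 1.42 for Tapbp, 0.688 to 1.47 for Tapbpl and 0.818 to 1.34 for Erap1. For the chaperones it was 0.661 to 1.42 for Calr, 0.823 to 1.13 for Canx and 0.738 to 1.31 for Pdia3. The block gave narrower intervals: 0.861 to 1.3 for Tap1, 0.905 to 1.32 for Tap2, 0.898 to 1.06 for Tapbp, 0.880 to 1.13 for Tapbpl and 0.908 to 1.20 for Erap1. With the block the chaperones had 0.892 to 1.07 for Calr, 0.879 to 1.06 for Canx and 0.902 to 1.08 for Pdia3. These intervals do not show that the groups were equal.

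IFNγ plus FK866 against media gave the same 5 genes higher and 0 lower, where 2.76% of all genes were called higher and 0.597% lower, and with the block again these 5, beside 8.53% and 7.61%. The 5 genes were higher without overlap, as were 7.98% of all genes, and 6.29% were lower without overlap. This comparison shares its media libraries with that of IFNγ, so the values are given side by side only. The log2 fold changes over media were 6.19 with IFNγ plus FK866 and 6.09 with IFNγ for Tap1, and 6.23 and 6.09 for Tap2 in the same order. For Tapbp they were 2.11 with IFNγ plus FK866 and 2.14 with IFNγ, for Tapbpl 4.19 and 4.18, and for Erap1 2.83 and 2.77. The edgeR adjusted p-values for IFNγ plus FK866 against media were 0.000607 for Tap1, 0.000129 for Tap2, 0.000933 for Tapbp, 2.28e-05 for Tapbpl and 9.22e-06 for Erap1. Without media library 3 the fold with IFNγ plus FK866 was 266 for Tap1 and 246 for Tap2, against 72.8 and 75.0 with all libraries, and limma-voom gave 128 for Tap1.

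The size of the IFNγ response differed between the numbers for Tap1 and Erap1. In a test of the IFNγ change by number, in which the IFNγ and the IFNγ plus FK866 libraries of a number entered together, 2 of the 8 genes were called, beside 0.597% of all genes (91 genes). For Tap1 the log2 change over media was larger by 2.23 in number 4 and by 3.28 in number 5 than in number 3 (edgeR adjusted p = 4.87e-06). The 6 libraries with IFNγ spanned 117 to 195 CPM for Tap1, a 1.66-fold range, whereas media ran from 0.418 CPM in number 5 to 5.34 CPM in number 3. For Erap1 the log2 change was larger by 0.32 in number 4 and smaller by 0.50 in number 5 than in number 3 (edgeR adjusted p = 0.0326). The Erap1 call was lost with scaling to library totals (adjusted p = 0.0952), when library 4 of IFNγ plus FK866 was left out (0.103) and when its library 5 was (0.0566).

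Tap2 and Tapbpl had differences in the direction of Tap1 that did not pass. Their log2 change over media was larger in numbers 4 and 5 than in number 3 by 2.37 and 2.82 for Tap2 (edgeR adjusted p = 0.214) and by 0.65 and 1.00 for Tapbpl (0.179). Tapbp differed by 0.11 and 0.07 (0.908), and the chaperones had adjusted p-values of 0.669 for Calr, 0.689 for Canx and 0.724 for Pdia3. Each number has 1 media library, so the spread comes only from the IFNγ and the IFNγ plus FK866 library of each number. The test thus assumes that FK866 adds no more than replicate spread, and that media libraries vary in the same way. With IFNγ plus FK866, the ratio to media in numbers 3, 4 and 5 was 36.5, 165 and 356 for Tap1 and 7.60, 9.47 and 4.89 for Erap1, from the same media libraries. What the numbers stand for was not tested.

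**Figure D3:**
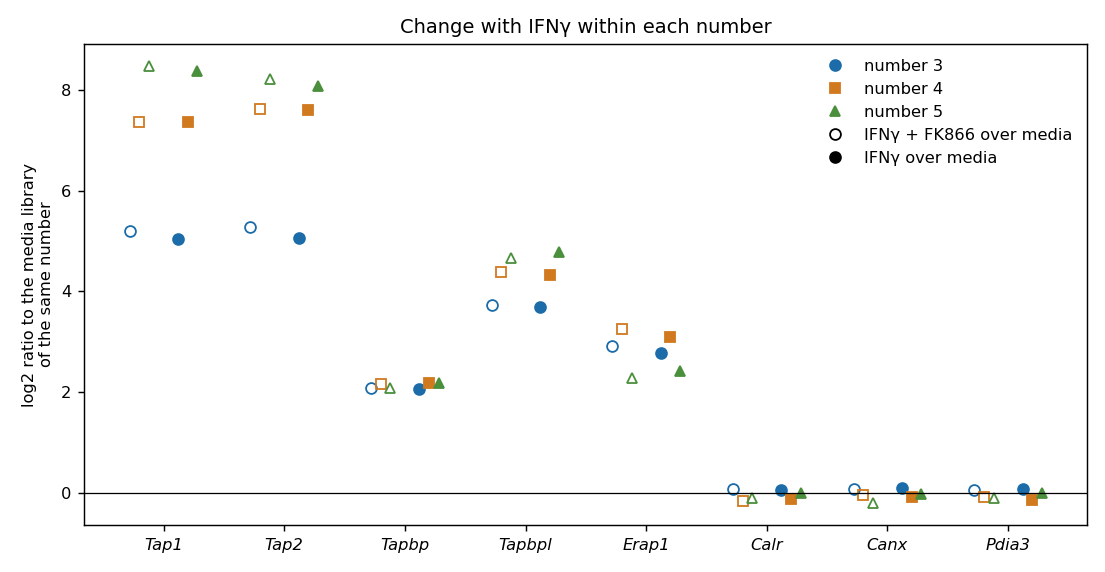
Log2 ratio of each gene to the media library of the same number, for IFNγ plus FK866 (open markers) and IFNγ (filled markers), with the number given by marker and colour. For Tap1 and Tap2 number 3 lies lowest and number 5 highest, whereas Tapbp lies within a narrow band and the chaperones at about 0.

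Levels also differed between numbers in a fit that allowed for treatment. That fit takes the differences between numbers to be the same in all groups, whereas for Tap1 they differed between media and IFNγ. In edgeR's test of the number, adjusted over all genes, 6 of the 8 genes were called, as were 51.8% of all genes, so the share carries no statement about these genes. Tapbp was lower in number 5 than in number 3 by a log2 difference of -0.65 (adjusted p = 5.61e-08), and Calr was higher in number 5 by 0.52 (5.22e-08). Pdia3 was lower in number 4 by -0.37 (7.15e-06). Erap1 (0.0982) and Canx (0.198) were not called, although Erap1 was called without media library 4 (0.00929) or 5 (0.000533), with library totals (0.0241) and without the filter on low counts (0.00910).

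Per length, the chaperones stayed the most abundant of the 8 transcripts in every group. Levels per kilobase of annotated exon with IFNγ averaged 458 ± 126 CPM per kb for Calr, 233 ± 16.7 for Canx, 185 ± 37.5 for Pdia3 and 50.3 ± 10.6 for Tapbp (SD, n = 3). Then came Tap1 at 26.3 ± 5.46, Tapbpl at 25.9 ± 3.39, Erap1 at 14.9 ± 1.61 and Tap2 at 5.50 ± 1.20 CPM per kb. Of neighbours in that order, Tap1 and Tapbpl overlapped and the others did not, with Canx and Pdia3 close to touching. With IFNγ plus FK866 the order was the same, at 444 for Calr, 225 for Canx, 182 for Pdia3, 49.4 for Tapbp, 28.1 for Tap1, 26.0 for Tapbpl, 15.6 for Erap1 and 6.04 CPM per kb for Tap2, and there the ranges of Tapbp and Tap1 just met as well. In media the order below the chaperones was Tapbp at 11.4 ± 2.72, Erap1 at 2.19 ± 0.286, Tapbpl at 1.43 ± 0.608, Tap1 at 0.394 ± 0.504 and Tap2 at 0.0813 ± 0.102 CPM per kb (SD, n = 3). There Erap1 overlapped Tapbpl, Tapbpl overlapped Tap1 and Tap1 overlapped Tap2. With the length of the principal transcript in place of all exons the order of the means held in every group. Tap1 with IFNγ was then at 48.8 CPM per kb and overlapped Tapbp, at 63.0, instead of Tapbpl. Canx at 256 ± 18.3 and Pdia3 at 210 ± 42.5 CPM per kb with IFNγ then overlapped too.

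Calr, Canx and Pdia3 together made up 85.4%, 84.7% and 90.8% of the summed per-kilobase level of the 8 genes in IFNγ plus FK866 libraries 3, 4 and 5, 86.0%, 84.9% and 91.2% in IFNγ libraries and 97.7%, 98.0% and 98.9% in media. The chaperone share was lower in all 6 libraries with IFNγ than in the 3 media libraries. Because the genes that rose enter the same sum, this restates their rise. The ratio of Tap1 to Tap2 per kilobase was 4.63, 3.75 and 5.77 with IFNγ plus FK866, 4.85, 3.81 and 5.99 with IFNγ, and 4.89, 4.49 and 4.83 in media. In media this ratio rests on 1 to 12 Tap2 counts. It was lower with IFNγ plus FK866 than with IFNγ in 3 of 3 numbers. The ratio of Calr to Canx was 1.84, 1.58 and 2.52 with IFNγ plus FK866, 1.79, 1.65 and 2.39 with IFNγ, and 1.84, 1.70 and 2.34 in media. Number 5 had the highest Calr to Canx ratio in each group. In two-sided exact permutation tests, 3 libraries against 3, p was 0.7 to 0.9 for the 6 comparisons of these ratios (0.9 after Benjamini-Hochberg adjustment), where the smallest p possible is 0.1. Paired by number, a test added after seeing the data, the exact two-sided p was 0.25 for Tap1 to Tap2 in IFNγ plus FK866 against IFNγ, the smallest that 3 pairs allow, and 0.5 to 1.0 for the other 5 comparisons.

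**Figure D4:**
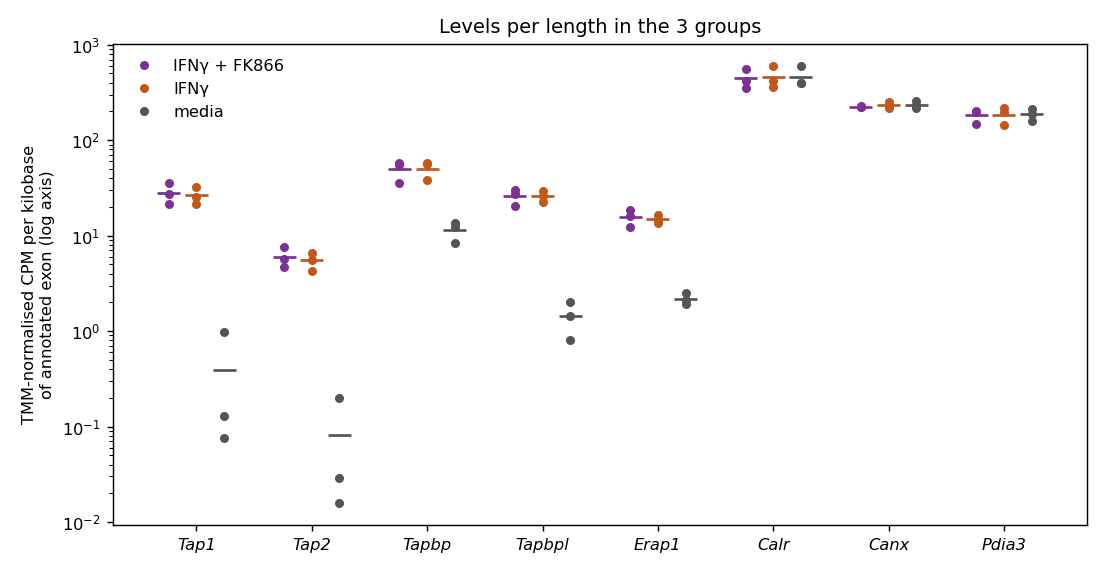
Level per kilobase of annotated exon (log axis) of each gene in IFNγ plus FK866, IFNγ and media, with a point for each library and a bar for the mean of 3. Calr, Canx and Pdia3 are the highest in each group, and Tap2 the lowest.

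Other ER folding and quality control genes are the class of the chaperones. Of 24 listed, 23 were tested and 1 was called higher with IFNγ than in media, a share near the 2.80% of all genes, with a median log2 fold change of 0.02 beside -0.01 over all genes. That gene was Ero1l, an oxidase that recharges disulphide isomerases, with 929, 581 and 545 CPM in IFNγ libraries 3, 4 and 5, against 371, 271 and 254 CPM in media. Its log2 fold change was 1.20 (edgeR adjusted p = 0.0343), and its call was lost in 5 of the 9 fits that left out 1 library, with adjusted p-values up to 0.152. With the number as a block, where 8.12% of all genes were called higher, Ero1l kept its call and Manf, an ER stress factor, was called too (log2 fold change 0.30, adjusted p = 0.00130). Hspa5, which encodes the main ER chaperone BiP, had a log2 fold change of 0.06 (adjusted p = 1.00), and Creld2 had 0.21 (0.908).

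Of 10 genes for other peptidases of antigen processing, 1 was called higher with IFNγ than in media, beside 2.80% of all genes, and the median log2 fold change was 0.04. The gene called was Lap3, a leucine aminopeptidase, with 109, 86.3 and 102 CPM in IFNγ libraries 3, 4 and 5, against 56.7, 55.3 and 61.7 CPM in media, without overlap. Its log2 fold change was 0.78 (edgeR adjusted p = 0.00769). With the block (8.12% of all genes higher), Tpp2, a large cytosolic peptidase, was also called (log2 fold change 0.30, adjusted p = 0.00105), while Ide, the insulin-degrading enzyme, was not (0.17, 0.0952). Of 8 other ABCB transporters, the family of Tap1 and Tap2, 6 were tested. By edgeR 0 were called and 0 had an unadjusted p below 0.05, DESeq2 called 0, and log2 fold changes lay between -0.24 for Abcb6 and 0.17 for Abcb1b.

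Of 5 immunoproteasome and PA28 genes, which supply peptides to TAP, 4 were called higher with IFNγ than in media (Psmb8, Psmb9, Psmb10 and Psme2), beside 2.80% of all genes, with a list median of 3.39. The list's remaining gene, Psme1, was called with the block (log2 fold change 1.21, adjusted p = 6.46e-10). Psmb10 had 52.3, 56.2 and 58.7 CPM in IFNγ libraries, against 5.08, 4.93 and 5.91 CPM in media (log2 fold change 3.39, edgeR adjusted p = 2.17e-07). Psme2, a proteasome activator subunit, had 59.7, 49.5 and 27.6 CPM in IFNγ libraries 3, 4 and 5, against 17.5, 11.7 and 9.61 CPM in media. Its edgeR adjusted p was 0.0410, and the call was lost in 8 of 17 alternatives, with adjusted p-values up to 0.173. Of 9 class I genes and transactivators, 3 were called higher, beside 2.80% of all genes, among them Nlrc5, the class I transactivator (log2 fold change 6.65, edgeR adjusted p = 1.46e-08) and Irf1, an interferon-induced transcription factor (5.51, 3.97e-08).

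With the block 7 of these 9 were called higher, beside 8.12% of all genes. They included the class I heavy chain genes H2-K1 (log2 fold change 1.02, adjusted p = 3.87e-05) and H2-D1 (0.52, 1.73e-05), whose near-identical copies make their counts uncertain. They also included Rfx5, which encodes a factor that binds class I promoters (0.72, 1.85e-05). Of 13 genes of ER export, 0 were called by edgeR, 0 had an unadjusted p below 0.05 and DESeq2 called 0. With the block the coat protein genes Sec24b (0.20, adjusted p = 0.0440) and Sec23b (0.21, 0.0474) were called higher. For IFNγ plus FK866 against IFNγ, edgeR with or without the block and DESeq2 called 0 genes in these 6 lists, and 0 had an unadjusted p below 0.05 without the block, against 1 with it.

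Neighbouring and overlapping genes bear on what was counted, because the strand setting is not given in the sources used here. Tap1 overlaps Psmb9 head to head by 212 exon bases, 3.87% of its exon length, and Psmb9 had 228, 184 and 179 counts in IFNγ libraries 3, 4 and 5, against 1, 0 and 1 counts in media. Psmb8, 496 bases from Tap1 on its other side, had 69, 33 and 70 counts with IFNγ, against 2, 0 and 0 counts in media. All 4 neighbours, Psmb9, Tap1, Psmb8 and Tap2, were called higher with IFNγ. The RefSeq promoter windows of Tap1 and Psmb9 share 275 bases.

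Erap1 overlaps Cast, the calpain inhibitor gene, on the opposite strand by 834 exon bases (11.46%). Cast had 79.9, 59.9 and 58.4 CPM in IFNγ libraries 3, 4 and 5, against 75.1, 58.9 and 54.1 CPM in media, a log2 fold change of 0.08 (edgeR adjusted p = 1.00), so its groups overlapped while those of Erap1 did not. Tapbp shares 904 exon bases (24.92%) with the antisense gene Gm19412, which had 644 counts over the 9 libraries where Tapbp had 20454. Gm19412 had a log2 fold change with IFNγ of 1.18 (edgeR adjusted p = 0.161), and of 1.19 with the block (0.000719). On its own strand, Tapbp shares 149 exon bases (4.11%) with Zbtb22, which had a log2 fold change of -0.26 (edgeR adjusted p = 0.722). Tap2 overlaps the opposite-strand genes Gm15821 (14.1% of its exon bases) and Gm20496 (4.36%), both with 0 counts. Near Tapbp, Daxx, at a distance of 309 bases, rose by a log2 fold change of 0.99 (edgeR adjusted p = 0.00318), whereas Rgl2, at 251 bases, had -0.07 (1.00).

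Genes with a pattern like that of each member were sought by Pearson r of log2 CPM over the 9 libraries, with a prior count of 2. The search covered tested genes other than the 8, without predicted genes, Riken clones and pseudogenes. All 9 libraries and their scaling enter every r, and 6 of them had IFNγ, so r mainly follows the difference between IFNγ and media for the genes that rose. Outside the 8 genes, Tap1 was closest to Fcgr2b (r = 0.9924), Rchy1 (0.9911) and Rnf31 (0.9888), and Tap2 to Serpinb9 (0.9945), Rnf31 (0.9943) and Parp10 (0.9926). Tap1 and Tap2 were closer to each other (0.996) than to any of these. Tapbp was closest to Ifi35 (0.9967), Ralgds (0.9954) and Trappc11 (0.9953), and Tapbpl to Bcl6 (0.9974), Snx10 (0.9974) and Idnk (0.9969). Erap1 was closest to Erc1 (0.9991), Arid5a (0.9978) and Mov10 (0.9961). Among the chaperones, Calr was closest to Cenpb (0.9955), Tcf25 (0.9955) and Exoc8 (0.9866), and Pdia3 to Lsm6 (0.9945), Pmm2 (0.9912) and Tfrc (0.9886). Canx, which varied least, had lower likeness, to Dhx29 (0.9552), Micu2 (0.9347) and Rfc1 (0.9258). Within the 8 genes, the 5 that rose had r of 0.947 to 0.996 with each other, and the 3 chaperones had r of 0.821 between Calr and Pdia3, 0.747 between Calr and Canx and 0.581 between Canx and Pdia3.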

How the data were processed

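Reads per Ensembl gene were deposited by the authors as raw counts, 1 column for each of 9 libraries, per the file headers. The labels name polyA RNA from B16F10 cells. Per the submitters' processing notes, which state neither role nor order, the tools were cutadapt 1.16, featureCounts 1.6.3, DESeq2 1.30.1 and STAR 2.7.6a, and the builds mm10 and GRCm38. For strand and annotation release the entry is: not given in the sources used here. The series text names a single-cell platform, but the table has no cells and was handled as bulk RNA. Of 55487 gene IDs, 55227 matched GENCODE M21 on GRCm38, the source of names, positions and exon lengths, and 28707 had no counts.

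A quasi-likelihood model of group means over all 9 libraries was fitted with edgeR 4.0.16 under R 4.3.3, after filterByExpr and TMM scaling. The 15237 genes kept held 99.892% of the counts. Standard errors were derived from the F statistic, p-values were adjusted by Benjamini-Hochberg over all genes tested, and calls needed an adjusted p under 0.05. Levels are TMM-normalised CPM. For scale, 1 Tap2 count in media library 5 is 0.0597 CPM. Ratio intervals are exact binomial. The test of each number's IFNγ change put both groups with IFNγ together. Promoter windows are from RefSeq (GRCm38.p6).

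The numbers 3, 4 and 5 in the titles were used to pair the libraries. After subtracting each group's mean, r was 0.555 to 0.728 in the 9 pairs sharing a number and -0.477 to -0.112 in the 18 others. With 3 libraries per group these deviations sum to 0, so the negative r of the 18 others is no separate support for pairing. Blocking on the number gave a median standard error of 0.107 for IFNγ against media, against 0.213 without it. Alternatives were other scalings, no filter, DESeq2 1.42.0, limma-voom (limma 3.58.1), only the groups compared, and leaving out each library. Exact permutation tests used scipy 1.17.1. The scripts were tested on simulated counts.

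The genes named include the 8 members, from the other lists up to 3 with the smallest p and those called, and the 3 genes outside the 8 most like each member. Hspa5 and some cell type markers were named outside this rule. Daxx, Rgl2, Cast and the other neighbours were taken by position. Members and lists were chosen with earlier results of these data known. 1 gene of the class I list is not reported here.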

Additional observations from a re-analysis of the deposited data

Results flagged for a closer look

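The change with IFNγ over media differed between the numbers for Tap1 and Erap1 in a test of the difference itself. Tap1 had an edgeR adjusted p of 4.87461e-06, with ratios of IFNγ to media of 33.0, 165 and 333 in numbers 3, 4 and 5. Erap1 had an adjusted p of 0.0325656, with ratios of 6.88, 8.55 and 5.37, and its call was lost with library totals (0.0952) and without library 4 (0.103) or library 5 (0.0566) of IFNγ plus FK866. Each number holds 1 media library, and the test took the IFNγ and the IFNγ plus FK866 library of a number as replicates. What sets the numbers apart was not tested.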

How the results depend on the processing

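Under the 20 alternatives tried in each comparison with media, Tap1, Tap2, Tapbp, Tapbpl and Erap1 kept their direction and call in 200 of 200 values. Over all 3 comparisons, none of the 280 values of members that were not called became called. The replicate block changed no call among the 8 genes in these comparisons.

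Counts of all genes moved more, and the cause was not tested. For IFNγ against media, 427 genes were higher and 76 lower. With the replicate block these were 1237 and 936, with DESeq2 180 were lower, with DESeq2 and the block (chosen after seeing the data, like the leaving out of all libraries of a number) 1079 and 759, and leaving out 1 library 287 to 420 and 26 to 68. For IFNγ plus FK866 against IFNγ, the replicate block called 2 higher and 1 lower, and DESeq2 with the block 1 higher. For IFNγ plus FK866 against media, 421 were higher and 91 lower, with the replicate block 1299 and 1160, with DESeq2 198 lower, with only these groups 59 lower, with DESeq2 and the block 1119 and 906, and leaving out 1 library 284 to 406 and 34 to 75. The IFNγ change differed by number in 91 genes, in 54 with library totals, in 267 without the filter and in 63 to 241 leaving out 1 library. For the 8 genes this count was 2, with library totals 1, and leaving out 1 library 1 to 2.

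Signs near 0 turned in 61 values, 57 of them when leaving out libraries. The other 4 concern IFNγ plus FK866 over IFNγ: Tapbpl had -0.00143 with the replicate block and -0.00158 with DESeq2 and the block, and Tapbp had 0.00662 and Pdia3 0.0146 with library totals. Leaving out libraries, log2 fold changes of IFNγ over media were -0.26 to 0.22 for Calr, -0.064 to 0.068 for Canx and -0.13 to 0.14 for Pdia3. For IFNγ plus FK866 over IFNγ they were -0.11 to 0.26 for Tap1, -0.073 to 0.30 for Tap2, -0.20 to 0.16 for Tapbp, -0.12 to 0.15 for Tapbpl, -0.069 to 0.21 for Erap1, -0.25 to 0.20 for Calr, -0.10 to 0.015 for Canx and -0.18 to 0.10 for Pdia3. For IFNγ plus FK866 over media they were -0.27 to 0.18 for Calr, -0.12 to 0.030 for Canx and -0.15 to 0.090 for Pdia3. The log2 ratio of Tap1 to Tap2 differed by -0.14 to 0.19 for IFNγ over media, -0.21 to 0.11 for IFNγ plus FK866 over IFNγ and -0.18 to 0.13 for IFNγ plus FK866 over media, and that of Calr to Canx by -0.18 to 0.12, -0.17 to 0.17 and -0.19 to 0.15 in the same order. Leaving out a media library in the test of the IFNγ change by number could not be fitted. Depth limits Tap1 and Tap2 in media, where 1 to 85 counts set the fold.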
